A study of Homo sapiens with 12 samples.

Results

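The 34 genes described here encode the proteins that bring glucose into a cell and carry its carbon to pyruvate, lactate, pentose phosphates or glycogen. They were taken by symbol from a list written by function: 2 glucose transporters, 9 enzymes of the upper steps of glycolysis, 3 enzymes that set the level of fructose 2,6-bisphosphate, 6 enzymes of the lower steps, 4 genes of lactate handling, 5 genes of the pyruvate dehydrogenase step, 3 of the pentose phosphate pathway and 2 of glycogen. All 34 had a row among the 25435 gene symbols of the count table. Of these, 33 passed the filter on low counts. ALDOC, an aldolase best known from brain, had 0 to 7 counts per library and was not tested.

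The RNA came from LMSU, an established human gastric cancer cell line in which, per the labels, p53 carries the R175H variant, and this holds for all 12 libraries. The knockout arm, without doxycycline, held a control named GFP_V2 (here the knockout control) and the p53 knockout named GFP_sg-1, with 2 libraries each. The knockdown arm, with doxycycline in all of its libraries, held a scramble shRNA, p53 shRNA-1, p53 shRNA-2 and a vector without further description, again with 2 libraries each. Doxycycline is an antibiotic often used to switch inducible constructs on. Construct and doxycycline change together between the arms, so their parts in any difference between arms cannot be told apart. The labels do not say if replicates are separate cultures, or how many clones the knockout comprises. The p-values therefore measure the spread between these libraries, which may be technical.

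Library totals ran from 9738094 to 16823246 counts, and the 34 genes together took from 1.92% to 3.58% of the counts of a library. Markers were only in part those of a gastric epithelium: the epithelial genes EPCAM, CDH1, KRT19 and ESRP1 had at most 4 counts in a library and the gastric genes TFF1 and TFF2 had 0, while the keratins KRT8 and KRT18 reached group means of 206 and 272 CPM. Of the 8 epithelial markers 4 passed the filter on low counts, KRT8, KRT18, KRT7 and CLDN4. Their summed level ran from 255 to 460 CPM over the libraries. The mesenchymal genes VIM and COL1A1 had group means from 7036 to 16374 and from 1566 to 6599 CPM. Summed over 10 mesenchymal markers, the level ran from 10840 to 13073 CPM without doxycycline and from 41430 to 56968 CPM with it. Of the leukocyte markers given here CD3E had 0 counts, PTPRC and CD14 had at most 3 in a library, and CD68, a lysosomal gene also known outside leukocytes, had group means of 203 to 442 CPM. Of 4 endothelial markers CDH5 had 0 counts and PECAM1, VWF and KDR had at most 15, 8 and 6 in a library. Of 3 red cell markers HBA1 and HBA2 had 0 counts and HBB at most 1. In bulk RNA, fewer cells of a type and less RNA per cell cannot be told apart. Levels are CPM throughout, the count as a share of its library scaled by the TMM method, and a gene was called when edgeR's quasi-likelihood test, fitted to all 12 libraries, gave a Benjamini-Hochberg adjusted p below 0.05 over all 13365 tested genes. Fitted alone, the knockout arm had a biological coefficient of variation of 15.6% and the other arm of 3.08%. Every test used 1 spread per gene for both arms. The standard errors (SE) are thus likely too wide within the knockdown arm and too narrow within the knockout arm.

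Glycolysis splits glucose into pyruvate through a chain of enzymes, with committed steps at hexokinase, phosphofructokinase and pyruvate kinase. Lactate dehydrogenase turns pyruvate into lactate and regenerates the NAD+ that the chain needs, and monocarboxylate carriers move the lactate across the membrane. Pyruvate dehydrogenase sends pyruvate to mitochondria instead, and the PDK kinases switch that enzyme off. Many genes of this route are known targets of the hypoxia-inducible transcription factor HIF-1, which binds a core of ACGTG or GCGTG letters, and of MYC, which binds CACGTG. Tumour cells often run the route fast even with oxygen present, and wild-type p53 is known to restrain it in several cell types.

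Promoter sequences are shown for 6 of the genes whose values the text turns on: PGK1, LDHA, ENO2 and PDK1, which rose with both p53 hairpins over scramble, and LDHB and PDHB, which were called in none of the comparisons. Each is the 250 bases just upstream of 1 RefSeq start per gene on GRCh38.p14, read 5′ to 3′ on the strand of the gene. The first entry for a symbol was used, and any other start was not searched. Capitals mark every ACGTG or GCGTG on either strand, so that CACGT and CACGC in capitals are matches on the other strand. CACGTG reads the same on both strands and counts as 2 overlapping ACGTG matches. The windows are chrX:78103998-78104247 (plus strand) for PGK1, chr11:18394313-18394562 (plus) for LDHA, chr12:6914330-6914579 (plus) for ENO2, chr2:172555123-172555372 (plus) for PDK1, chr12:21657843-21658092 (minus) for LDHB and chr3:58433833-58434082 (minus) for PDHB.
PGK1: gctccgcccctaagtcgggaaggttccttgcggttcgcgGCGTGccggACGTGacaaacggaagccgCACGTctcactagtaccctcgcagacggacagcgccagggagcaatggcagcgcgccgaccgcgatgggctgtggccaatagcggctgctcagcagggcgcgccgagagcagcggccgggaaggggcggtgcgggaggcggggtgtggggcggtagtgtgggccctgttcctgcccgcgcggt
LDHA: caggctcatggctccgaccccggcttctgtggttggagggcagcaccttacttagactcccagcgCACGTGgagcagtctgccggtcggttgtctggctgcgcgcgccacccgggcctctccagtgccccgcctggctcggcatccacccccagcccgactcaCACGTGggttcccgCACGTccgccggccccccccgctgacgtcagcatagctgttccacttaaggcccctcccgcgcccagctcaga
ENO2: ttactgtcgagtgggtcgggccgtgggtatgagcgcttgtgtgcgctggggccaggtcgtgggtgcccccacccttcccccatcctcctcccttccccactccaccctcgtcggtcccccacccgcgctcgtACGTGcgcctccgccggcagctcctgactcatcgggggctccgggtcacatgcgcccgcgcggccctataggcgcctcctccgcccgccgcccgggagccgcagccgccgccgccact
PDK1: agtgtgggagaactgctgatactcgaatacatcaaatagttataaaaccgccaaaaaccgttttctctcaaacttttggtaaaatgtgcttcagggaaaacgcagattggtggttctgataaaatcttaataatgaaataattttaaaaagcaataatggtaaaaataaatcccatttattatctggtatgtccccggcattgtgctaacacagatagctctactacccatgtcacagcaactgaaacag
LDHB: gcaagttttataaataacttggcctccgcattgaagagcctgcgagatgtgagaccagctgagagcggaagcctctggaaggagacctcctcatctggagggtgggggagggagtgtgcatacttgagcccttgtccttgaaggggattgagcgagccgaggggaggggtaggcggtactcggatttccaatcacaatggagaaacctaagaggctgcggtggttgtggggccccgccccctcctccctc
PDHB: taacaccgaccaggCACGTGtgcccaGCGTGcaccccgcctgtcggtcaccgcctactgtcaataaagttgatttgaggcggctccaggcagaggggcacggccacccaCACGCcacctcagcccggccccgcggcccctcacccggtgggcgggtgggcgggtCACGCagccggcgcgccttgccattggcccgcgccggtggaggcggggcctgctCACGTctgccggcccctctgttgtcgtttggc
The LDHA window held 5 ACGTG matches, 4 of them within its 2 CACGTG palindromes, and the PGK1 window held 2 ACGTG and 1 GCGTG. The ENO2 window held 1 ACGTG, while the windows of PDK1 and LDHB held neither core. PDHB, whose RNA level was flat, held 3 ACGTG and 3 GCGTG, among them 1 CACGTG. Promoters of 31 of the 34 genes were in the RefSeq table, all but SLC2A3, SLC16A1 and PFKFB2, and 18 of them (58.1%) held ACGTG or GCGTG, against 43.1% of all 27305 promoters of this length. Of the 7 genes that rose with both hairpins over scramble, 5 held a core, as did 13 of the 24 others. CACGTG stood in 4 of the 31 windows (12.9%) and in 6.49% of all promoters. These matches describe letters in a short window at 1 start per gene and say nothing of binding. A window without a core does not show that the gene lacks one elsewhere.

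The question of the knockdown arm was what changes when p53 R175H is lowered by hairpins. The answer for glucose metabolism depended on the control. Against scramble, the glucose transporter gene SLC2A1, PGK1 and ENO2 of lower glycolysis, the lactate dehydrogenase gene LDHA and the kinase gene PDK1 were among those that rose with both hairpins, and against vector 14 and 15 of the 33 genes were lower. Of the 33 tested genes, 10 rose and 1 fell with shRNA 1 over scramble, where 4.40% of all 13365 tested genes rose and 5.01% fell (9.41% called). With shRNA 2 over scramble 11 rose and 1 fell, where 3.58% of all genes rose and 4.15% fell (7.74% called). Over vector 0 rose and 14 fell with shRNA 1, beside 5.78% and 7.26% of all genes (13.0% called), and 1 rose and 15 fell with shRNA 2, beside 9.21% and 11.7% (21.0% called). The median log2 fold change of the 33 was 0.32 and 0.31 over scramble and -0.35 and -0.32 over vector, while the median of all genes was 0.0037 and -0.0035 over scramble. In the same libraries 20 hypoxia genes outside glucose metabolism had medians of 0.37 and 0.65 over scramble and -0.28 and -0.23 over vector, and 20 G2/M genes had medians of 0.042 and -0.31 over scramble and -0.67 and -1.01 over vector. The part of these lists in the values of the 34 genes was not tested.

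**Figure D1:**
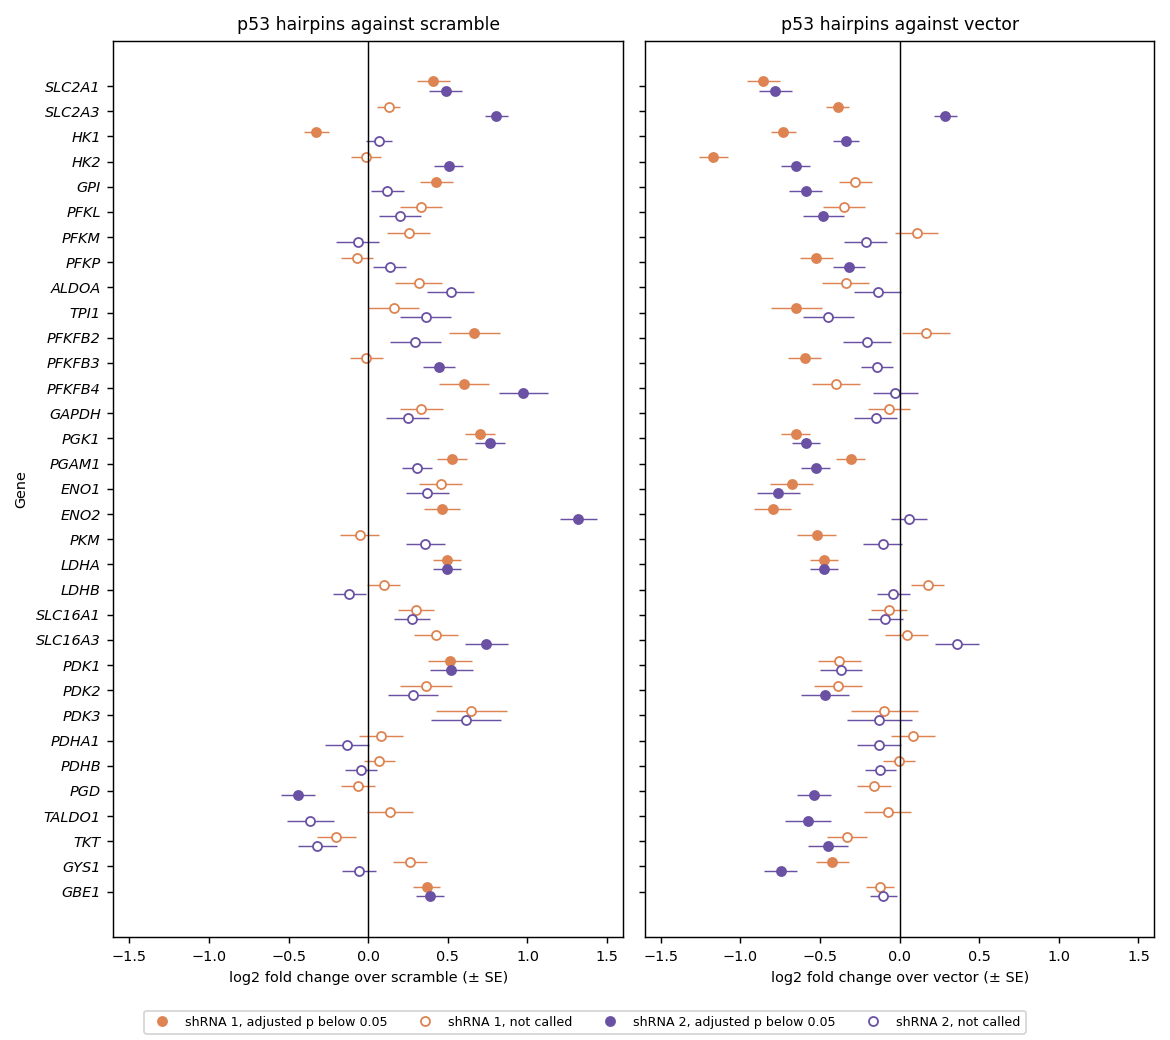
Log2 fold change of the 33 tested genes for p53 shRNA 1 (orange) and p53 shRNA 2 (purple). Scramble is the control on the left and vector on the right. Bars are ± SE, derived from the log2 fold change and the F statistic of the edgeR test. Filled points have an adjusted p below 0.05. Most points lie right of 0 over scramble, with medians of 0.32 and 0.31, and left of 0 over vector, with medians of -0.35 and -0.32.

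Called with both hairpins over scramble were 7 genes, all of them up: SLC2A1, PFKFB4, PGK1, ENO2, LDHA, PDK1 and GBE1 (1.28% of all genes were up with both and 0.920% down). Called with both hairpins over vector were 9, all of them down: SLC2A1, HK1, HK2, PFKP, PGK1, PGAM1, ENO1, LDHA and GYS1 (4.03% of all genes were down with both and 3.05% up). No gene of the 34 was called the same way with both hairpins over both controls, where 0.232% of all genes rose and 0.292% fell. In 14 of the 33 genes both scramble libraries lay below all 4 hairpin libraries and these lay below both vector libraries, beside 2.57% of all genes, and in 0 the order was the opposite, beside 2.34%. Scramble was below the 6 other libraries of the arm in 20 of the 33 (9.08% of all genes), and vector above them in 22 (16.7%). The 14 ordered genes were SLC2A1, GPI, PFKL, ALDOA, TPI1, GAPDH, PGK1, PGAM1, ENO1, LDHA, SLC16A1, PDK1, PDK2 and GBE1. The comparisons with 1 control share its libraries, so the calls with shRNA 1 and shRNA 2 are not independent.

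**Figure D2:**
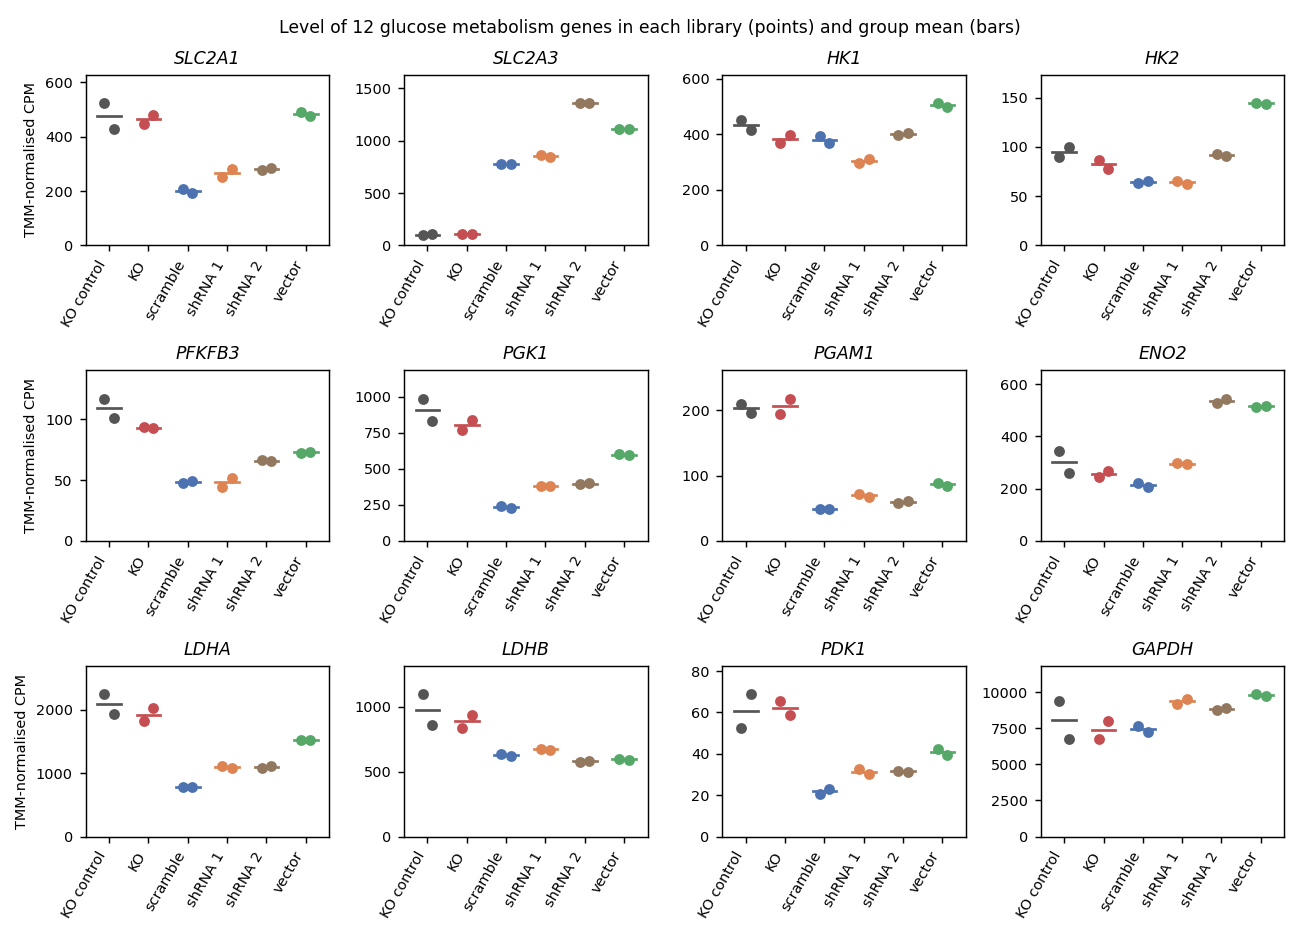
TMM-normalised CPM (linear axis from 0) of 12 genes in each of the 12 libraries; points are libraries and short bars group means. For PGK1 and LDHA the scramble libraries are lowest, both hairpins lie between and vector is highest within the knockdown arm, while SLC2A3 is at most 114 CPM in the knockout arm and at least 774 CPM in the knockdown arm.

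The glucose transporters came first in the route. SLC2A1 encodes GLUT1, the widespread basal transporter. It was at 207 and 194 CPM in scramble, 251 and 282 under shRNA 1, 278 and 284 under shRNA 2 and 489 and 477 in vector. The hairpin libraries lay between the controls with no overlap: SLC2A1 rose over scramble by 0.41 and 0.49 on the log2 scale (SE 0.10 and 0.10, edgeR adjusted p 0.0306 and 0.0157) and fell under vector by 0.86 and 0.78 (adjusted p 0.000388 and 0.000291). SLC2A3 encodes GLUT3, a transporter of high affinity known from neurons and many tumours. Its level was 774 and 782 CPM in scramble, 861 and 841 under shRNA 1, 1357 and 1359.8 under shRNA 2 and 1114 and 1114 in vector. Here the hairpins parted: shRNA 2 lay above all other libraries, 0.80 over scramble (adjusted p 0.00011) and 0.29 over vector (adjusted p 0.0154), while shRNA 1 lay between the controls, 0.13 over scramble (adjusted p 0.321) and -0.39 against vector (adjusted p 0.00544).

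In upper glycolysis the hexokinases, which trap glucose as glucose 6-phosphate, differed between the hairpins. HK1, the housekeeping form, was at 392 and 369.7 CPM in scramble, 297 and 311 under shRNA 1, 396 and 403 under shRNA 2 and 512 and 497 in vector. The shRNA 1 libraries were below all others, and HK1 was the single gene of the 33 called down with shRNA 1 over scramble, where it fell by 0.33 (SE 0.080, edgeR adjusted p 0.0269). HK2, the inducible form common in tumours, was at 63.8 and 65.2 CPM in scramble, 65.5 and 62.3 under shRNA 1, 92.4 and 90.6 under shRNA 2 and 144 and 143 in vector. The scramble and shRNA 1 libraries overlapped (-0.013, adjusted p 0.959), shRNA 2 was 0.50 higher than scramble (adjusted p 0.0069), and both hairpins lay under vector, by 1.17 and 0.65 (adjusted p 3.15e-05 and 0.000379).

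Of the remaining enzymes of upper glycolysis 1 was called over scramble, with shRNA 1. GPI, the glucose phosphate isomerase gene, rose with shRNA 1 by 0.43 over scramble (adjusted p 0.0253). It was at 0.12 with shRNA 2 (adjusted p 0.573), which lay -0.59 from vector (adjusted p 0.00187). The phosphofructokinase genes PFKL, PFKM and PFKP, the aldolase gene ALDOA and the triosephosphate isomerase gene TPI1 were not called over scramble with either hairpin, with log2 fold changes from -0.071 (PFKP, shRNA 1) to 0.52 (ALDOA, shRNA 2, adjusted p 0.0566). Against vector PFKP fell with both hairpins (-0.52 and -0.32), PFKL with shRNA 2 (-0.48) and TPI1 with shRNA 1 (-0.65). PFKM, the muscle form, and ALDOA were not called there.

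The PFKFB enzymes make and break fructose 2,6-bisphosphate, the strongest activator of phosphofructokinase. PFKFB4 rose with both hairpins over scramble, from 10.9 ± 0.154 CPM to 16.5 ± 1.21 and 21.4 ± 0.313 (SD, n = 2), or by 0.60 and 0.97 on the log2 scale (edgeR adjusted p 0.0371 and 0.00329). Vector was at 21.8 ± 1.47 CPM, and shRNA 2 lay -0.027 from it (adjusted p 0.916). PFKFB2 rose with shRNA 1 by 0.67 (adjusted p 0.0227) and was at 0.30 with shRNA 2 (adjusted p 0.319). The difference of 0.37 between the hairpins had an adjusted p of 0.139. PFKFB3, the form with the highest kinase activity, was at 47.9 and 49.3 CPM in scramble, 44.8 and 51.8 under shRNA 1, 66.2 and 66.0 under shRNA 2 and 72.5 and 73.5 in vector. As for HK2, shRNA 1 overlapped scramble while shRNA 2 was 0.44 higher (adjusted p 0.0218), and shRNA 1 fell by 0.60 under vector (adjusted p 0.00326).

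In lower glycolysis PGK1 was called in 6 of the 8 comparisons. It encodes phosphoglycerate kinase, which makes the first ATP of the route. PGK1 stood at 242 and 227 CPM in scramble, 381 and 381 under shRNA 1, 396 and 401 under shRNA 2 and 603 and 596 in vector. The 3 levels did not overlap: PGK1 rose by 0.70 and 0.76 over scramble (SE 0.092 for each, edgeR adjusted p 0.000954 and 0.000675) and fell by 0.65 and 0.59 under vector (adjusted p 0.00098 and 0.000835). Its promoter, printed above, carried 3 core matches. PGAM1, a phosphoglycerate mutase gene, was at 48.5 and 48.7 CPM in scramble, 72.4 and 67.5 under shRNA 1, 58.7 and 61.6 under shRNA 2 and 88.8 and 84.3 in vector. Again scramble was lowest and vector highest. PGAM1 rose with shRNA 1 by 0.53 (adjusted p 0.00498) and was at 0.31 with shRNA 2 (adjusted p 0.0693), and it fell under vector by 0.31 and 0.53 (adjusted p 0.0475 and 0.00175).

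The enolase genes, for the step before pyruvate kinase, did not move alike. ENO2, the neuronal enolase that tumours can also express, was at 222 and 208 CPM in scramble, 298 and 294 under shRNA 1, 527 and 545 under shRNA 2 and 513 and 516 in vector. The shRNA 2 libraries reached the level of vector and the shRNA 1 libraries did not. ENO2 rose over scramble by 0.46 with shRNA 1 (SE 0.12, edgeR adjusted p 0.0291) and by 1.32 with shRNA 2 (SE 0.12, adjusted p 0.000101), the largest change of the 33 genes over scramble. Under vector it fell by 0.80 with shRNA 1 (adjusted p 0.00122) and was at 0.059 with shRNA 2 (adjusted p 0.763). ENO1, the common enolase, had group means of 2701 ± 78.7 CPM in scramble, 3703 ± 61.1 under shRNA 1, 3495 ± 135 under shRNA 2 and 5926 ± 66.8 in vector (SD, n = 2). It missed the threshold over scramble (0.46 and 0.37, adjusted p 0.0605 and 0.13) and fell under vector by 0.68 and 0.76 (adjusted p 0.00801 and 0.00214). PKM, the pyruvate kinase gene, was lower with shRNA 1 under vector (-0.52, adjusted p 0.0175) and not called in the other 3 comparisons of a hairpin with a control.

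GAPDH, the dehydrogenase gene that is often used as a reference, was at 7644 and 7226 CPM in scramble, 9173 and 9555 under shRNA 1, 8768 and 8894 under shRNA 2 and 9874 and 9743 in vector. It was among the 14 of 33 genes with scramble below all hairpin libraries and these below vector, yet it was called in none of the 8 comparisons. Its log2 fold changes over scramble were 0.33 (SE 0.13, edgeR adjusted p 0.158) and 0.25 (SE 0.13, adjusted p 0.322), and scramble lay -0.40 from vector (adjusted p 0.0679). These SEs come from the spread shared by both arms. The SD of GAPDH was 1905 CPM in the knockout control and 92.3 CPM in vector.

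Among the lactate genes, LDHA and LDHB encode the muscle and heart subunits of lactate dehydrogenase. LDHA was at 783 and 775 CPM in scramble, 1115 and 1081 under shRNA 1, 1089.9 and 1108 under shRNA 2 and 1532 and 1524 in vector. The hairpin libraries overlapped each other and lay between the controls. LDHA rose over scramble by 0.50 and 0.50 (SE 0.087 for each, edgeR adjusted p 0.00492 and 0.00597) and fell under vector by 0.48 and 0.48 (adjusted p 0.00514 and 0.00247). LDHB, in contrast, was at 634 and 622 CPM in scramble, 674 and 669 under shRNA 1, 574 and 584 under shRNA 2 and 599 and 589.6 in vector. No comparison called it, and the largest of its 4 log2 fold changes of a hairpin over a control was 0.18 (SE 0.11, adjusted p 0.308). The lactate exporter gene SLC16A3 (MCT4) rose with shRNA 2 over scramble by 0.74 (adjusted p 0.00784), with group means of 235 ± 13.7 CPM in scramble and 393 ± 13.2 with shRNA 2. It was at 0.43 with shRNA 1 (adjusted p 0.0777). SLC16A1 (MCT1), a carrier that works in both directions, was at 0.30 and 0.28 over scramble and not called (adjusted p 0.131 and 0.175).

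At the pyruvate dehydrogenase step 1 of the 3 kinase genes rose over scramble and neither enzyme gene was called. PDK1, a kinase that inactivates the enzyme and a known HIF-1 target, was at 20.7 and 23.1 CPM in scramble, 32.5 and 30.0 under shRNA 1, 31.7 and 31.2 under shRNA 2 and 42.2 and 39.2 in vector. It rose over scramble by 0.51 and 0.52 (SE 0.14 for each, edgeR adjusted p 0.0388 and 0.0399), and its -0.38 and -0.37 against vector missed the threshold (adjusted p 0.0855 and 0.0672). PDK2 and PDK3, 2 further kinases of the family, were at 0.28 to 0.65 over scramble without a call, and PDK2 fell with shRNA 2 under vector (-0.47, adjusted p 0.0436). PDHA1 and PDHB, subunits of the E1 enzyme, had log2 fold changes from -0.13 to 0.082 in these 4 comparisons, and none was called.

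Within the knockdown arm the pentose phosphate genes had their lowest group means with shRNA 2. PGD, the second dehydrogenase of the oxidative branch, fell with shRNA 2 by 0.44 over scramble (SE 0.11, edgeR adjusted p 0.0291) and by 0.54 under vector (adjusted p 0.00411). With shRNA 1 it was at -0.062 and -0.16, and the hairpins differed by 0.38 (adjusted p 0.0375). TALDO1 (transaldolase) and TKT (transketolase) of the non-oxidative branch fell with shRNA 2 under vector, by 0.58 and 0.45, and were not called over scramble (-0.36 and -0.32).

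The glycogen genes were split. GBE1, the branching enzyme gene, rose over scramble with both hairpins by 0.37 and 0.39 (edgeR adjusted p 0.0228 and 0.0204), from 159 ± 3.39 CPM to 205 ± 4.80 and 208 ± 6.90 (SD, n = 2), with vector at 223 ± 0.71. GYS1, the muscle glycogen synthase gene, was at 0.26 and -0.060 over scramble (adjusted p 0.162 and 0.809) and fell under vector with both hairpins, by 0.42 and 0.75.

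How firmly these calls held differed by comparison. Over scramble 11 genes were called with shRNA 1 and 12 with shRNA 2, and with any 1 scramble or hairpin library removed these counts were 1 to 3 and 4, beside 2.48% to 2.90% and 1.72% to 2.01% of all genes, while PGK1 stayed called with both hairpins under each of these removals. Against vector the counts of 14 and 16 became 6 to 8 and 9, beside 3.64% to 4.69% and 10.3% to 10.6% of all genes. A fit to the libraries of the knockdown arm alone, which has a smaller spread than all 12 together, gave 25 and 26 calls over scramble and 24 with shRNA 1 over vector, beside 33.2%, 31.5% and 40.7% of all genes.

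The controls themselves were compared to see how far scramble differs from vector, since neither is labelled as a p53 hairpin. Scramble was lower than vector for most of the route, and of the 8 comparisons this one had the most calls among the 33 genes and the median farthest from 0: 24 of 33 fell and 0 rose, beside 8.16% and 7.10% of all genes (15.3% called), with a median of -0.59. PGK1 fell by 1.35 (SE 0.092, edgeR adjusted p 5.6e-06), SLC2A1 by 1.27 (adjusted p 1.9e-05), ENO2 by 1.26 (adjusted p 3.98e-05) and HK2 by 1.16 (adjusted p 1.49e-05). ENO1 (-1.13), PFKFB4 (0.50 of its level in vector, adjusted p 0.0011), LDHA (-0.97), PDK1 (-0.89) and PGAM1 (-0.83) followed. SLC2A3 (-0.52), HK1 (-0.41) and PFKFB3 (-0.59) fell less. Not called were GAPDH, PFKM, LDHB, SLC16A3, PDHA1, PDHB and the 3 pentose phosphate genes PGD (-0.098), TALDO1 (-0.21) and TKT (-0.13). In the same comparison 6 of 10 mesenchymal markers were higher in scramble and 1 lower (median 0.71), and the endothelial marker PECAM1 was higher by 1.34 (edgeR adjusted p 0.0444), with at most 15 counts in a library. Over vector 6 mesenchymal markers rose with each hairpin, and 1 and 2 fell (medians 0.80 and 0.72). Their part in the values of the 34 genes was not tested. With any 1 library of either control removed 14 to 18 of the 33 were called, beside 6.44% to 6.73% of all genes.

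The hairpins were compared with each other because they are directed at the same gene. Of the 33 genes 2 were higher with shRNA 1 and 6 were lower, beside 7.07% and 7.21% of all genes (14.3% called), with a median of 0.022. ENO2 (-0.86, SE 0.12, adjusted p 0.000764), SLC2A3 (-0.68, adjusted p 0.000196) and HK2 (-0.52, adjusted p 0.00361) were lower with shRNA 1, and these 3 calls stayed when any 1 hairpin library was removed. PFKFB3 (-0.45), PKM (-0.41) and HK1 (-0.39) were also lower, and TALDO1 (0.50) and PGD (0.38) were higher. For other genes the hairpins lay close: LDHA differed by -0.0011 (SE 0.087), PDK1 by -0.0075 (SE 0.14), PGK1 by -0.063 (SE 0.091) and SLC2A1 by -0.076 (SE 0.10). With any 1 hairpin library removed 3 to 5 of the 33 were called in place of 8, beside 682 to 799 of all genes in place of 1909.

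**Figure D3:**
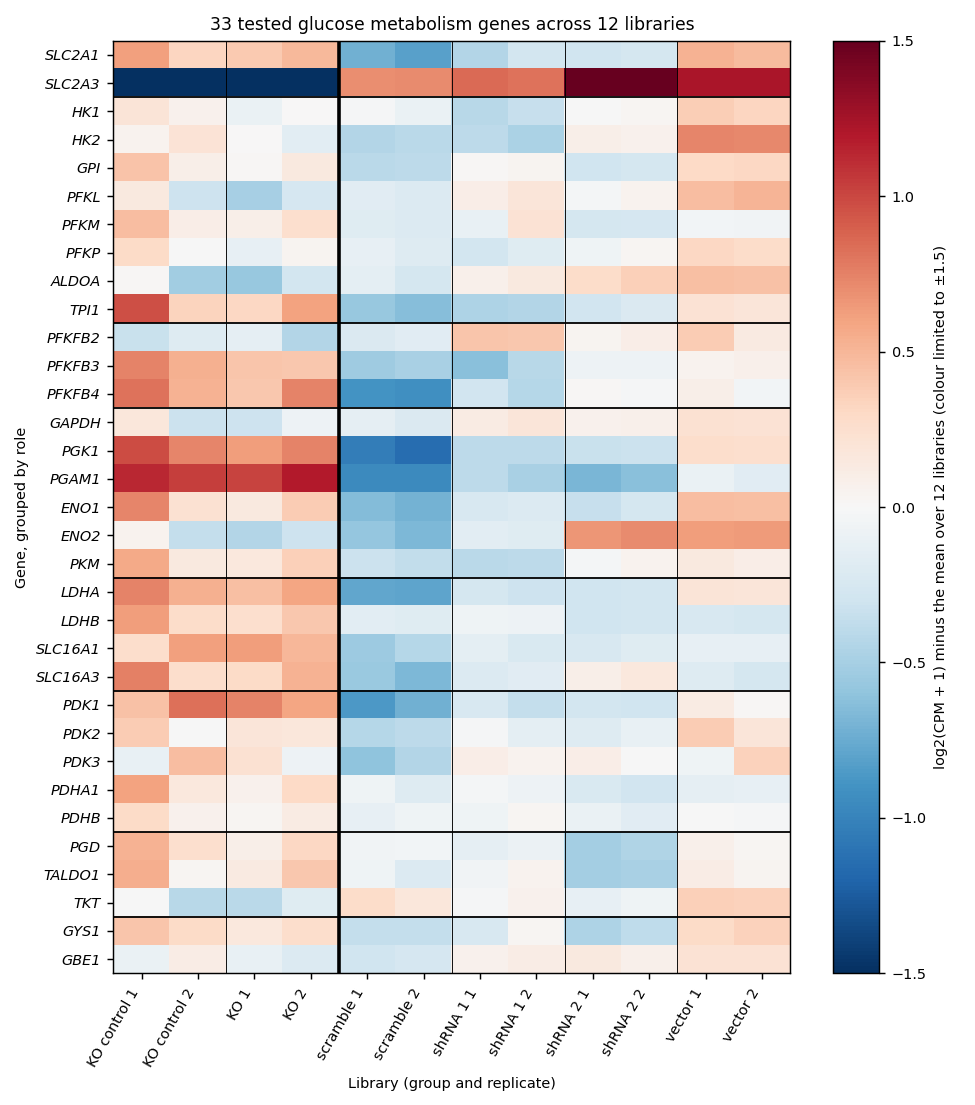
Deviation of log2(CPM + 1) from the mean over 12 libraries for the 33 tested genes, grouped by role, with libraries in columns; red is above and blue below the mean, the colour is limited to ±1.5, and the thick line parts the knockout arm (left) from the knockdown arm. The scramble columns are blue for most genes (medians -0.36 and -0.37) and the vector columns red (0.22 and 0.19), while SLC2A3 is low in all 4 knockout-arm libraries.

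In the knockout comparison 0 of the 33 genes were called, beside 0.0150% of all genes (0.00748% up and 0.00748% down), and 4 of the 33 had an unadjusted p below 0.05 in the edgeR test. DESeq2 and limma-voom also called 0 of the 33. Most values lay slightly below 0: 29 of 33, with a median of -0.13 and a range from -0.30 (PFKL) to 0.15 (SLC2A3), while the median of all genes was -0.012. PGK1 was at 988 and 833 CPM in the control and 773 and 840.2 in the knockout (-0.18, SE 0.090, adjusted p 0.777). LDHA was at 2251 and 1937 CPM in the control and 1829 and 2026 in the knockout (-0.12, adjusted p 0.787). ENO2 was at 345 and 259.7 CPM in the control and 244 and 268 in the knockout (-0.24), and SLC2A1 at 524 and 428 CPM in the control and 447 and 480.4 in the knockout (-0.037). In these 4 genes the libraries of the groups overlapped, and control replicate 1 was the highest of the 4 libraries. GAPDH was at 9428 and 6734 CPM in the control and 6773 and 7987 in the knockout (-0.13, SE 0.13, adjusted p 0.808).

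HK1 was at 452 and 414 CPM in the control and 369.8 and 397 in the knockout, HK2 at 89.9 and 100.01 CPM in the control and 86.8 and 77.5 in the knockout, and PFKFB3 at 117 and 101 CPM in the control and 93.2 and 92.5 in the knockout. The knockout libraries of these 3 genes all lay below the control libraries, with fitted differences of -0.18, -0.21 and -0.23 and no call (edgeR adjusted p 0.768, 0.768 and 0.762). GYS1 and GBE1 had the same order, also without a call. The share of all genes with such an order was not computed, so it is not read as a result. SLC2A3 was at 98.2 and 108 CPM in the control and 113 and 114 in the knockout, PGAM1 at 210.4 and 197 CPM in the control and 194 and 218 in the knockout, and PDK1 at 52.6 and 68.9 CPM in the control and 65.4 and 58.6 in the knockout. Of these, SLC2A3 was the one whose knockout libraries both lay above the control libraries (0.15, adjusted p 0.777).

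The knockout values rested on which control library was kept. With control replicate 1 removed the median of the 33 genes turned to 0.023, with 15 below 0 and 0 called, beside 0.125% of all genes. With control replicate 2 removed the median was -0.29, with 28 below 0 and 22 called, 20 of them down, beside 30.3% of all genes. ENO1 was at 0.040 and -0.46 in these fits, GAPDH at 0.14 and -0.36 and TPI1 at 0.13 and -0.50. The control libraries also differed in a list outside glucose metabolism: the median deviation of 76 ribosomal protein genes was 0.0035 in control replicate 1 and -0.57 in replicate 2, and -0.52 and -0.30 in the knockout. The part of this in the knockout values was not tested.

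**Figure D4:**
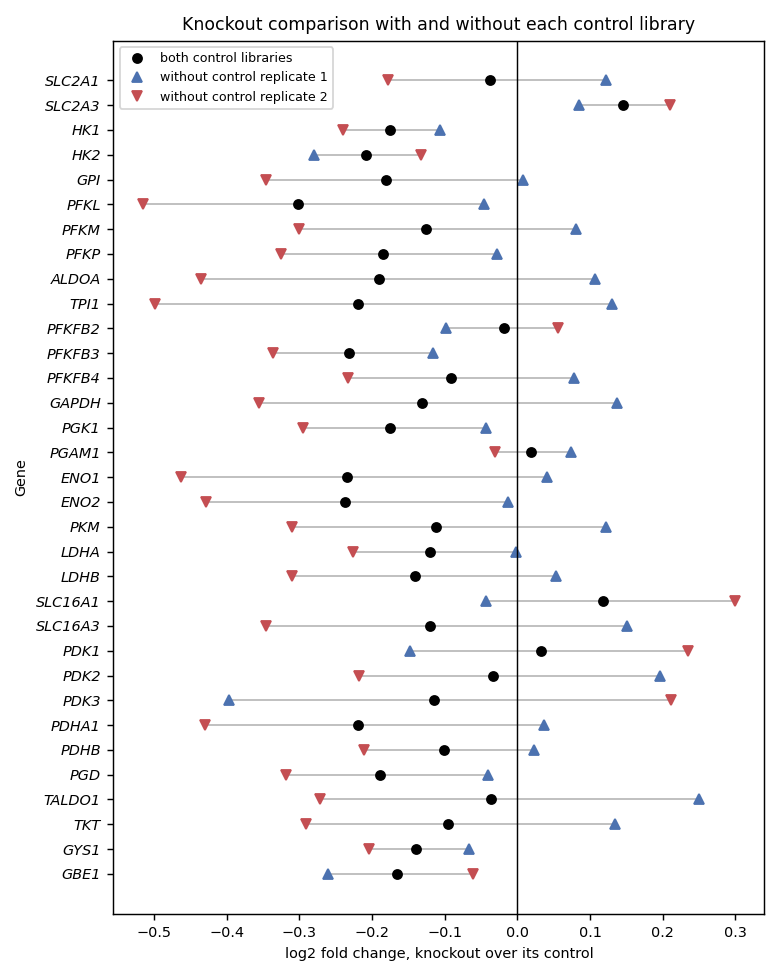
Log2 fold change of the 33 tested genes in the knockout over its control with both control libraries (black), without control replicate 1 (blue) and without control replicate 2 (red). The median is -0.13 with both, 0.023 without replicate 1 and -0.29 without replicate 2, so that for most genes the sign rests on the control library kept.

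The knockout effect minus the mean effect of the hairpins over scramble asks whether the arms responded alike. Of the 33 genes 3 differed and all were more negative in the knockout, beside 0.456% of all genes lower, 0.643% higher and 1.10% called in all: PGK1 by -0.91 (SE 0.12, edgeR adjusted p 0.00559), ENO2 by -1.13 (SE 0.15, adjusted p 0.0064) and LDHA by -0.62 (SE 0.12, adjusted p 0.0337). The median was -0.45. With vector in place of scramble the 3 values turned to 0.44, 0.13 and 0.36 without a call (adjusted p 0.0548, 0.727 and 0.107) and the median to 0.196. Without scramble replicate 2 edgeR called no gene of the 33 (0.183% of all genes), without knockout control replicate 1 it called 12 (5.18%), and without its replicate 2 it called 23 (24.5%). With vector 2 of the 33 were called, both more positive in the knockout, beside 5.35% of all genes. The sign of the difference between arms in PGK1, ENO2 and LDHA was thus set by the control used for the hairpins.

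Genes for the same step stood at unequal levels per kilobase of exon (CPM per kb, exon length from GENCODE v29). In scramble GAPDH was at 3343, ENO1 at 1123, ALDOA at 729 and PKM at 571 CPM per kb, and these 4 stood at the top of the route. Among hexokinases HK1 was above HK2 in every group, at 81.6 and 10.9 CPM per kb in scramble and 108 and 24.2 in vector. Among phosphofructokinases PFKP led in every group, with 141 beside 73.6 for PFKL and 15.6 for PFKM in scramble. LDHB was above LDHA in scramble (396 and 262 CPM per kb), LDHB was at 423 and LDHA at 369.9 with shRNA 1 and at 365 and 370.2 with shRNA 2, and LDHA was above LDHB in vector (515 and 375) and in the knockout control (705 and 615). Of the 34 genes 14 have pseudogenes named after them, 62 for GAPDH, 13 for PGAM1 and 6 for LDHA, so reads shared with these copies leave the levels of such genes uncertain.

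The arms differed in several levels. Of the 33 tested genes SLC2A3 had the largest ratio between the means of the knockout control and vector, with 98.2 and 108 CPM in the knockout control and 1114 and 1114 in vector, while SLC2A1 was at 524 and 428 in the knockout control and 489 and 477 in vector. Per kilobase, GLUT1 RNA was therefore above GLUT3 RNA in the knockout control (119 and 26.3) and below it in vector (121 and 285). PGAM1 ran the other way, at 210.4 and 197 CPM in the knockout control and 88.8 and 84.3 in vector. These differences were not tested, and construct and doxycycline cannot be told apart in them.

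The 34 genes were set beside other genes of the same pathways, taken from lists that shared no gene with the 34. Among 15 tested further genes of glycolysis and sugar transport 2 rose and 0 fell with shRNA 1 over scramble, and 0 rose and 2 fell with shRNA 2. The risers were BPGM (0.57, edgeR adjusted p 0.0428), which makes 2,3-bisphosphoglycerate, and GAPDHS (0.78), the testis form of GAPDH. Those that fell were ADPGK (-0.51), an ADP-using glucokinase gene, and TIGAR (-0.82, adjusted p 0.0428), which encodes a phosphatase for fructose 2,6-bisphosphate and is a known p53 target. TIGAR was low, at 4.50 ± 0.525 CPM in scramble, 5.15 ± 0.468 under shRNA 1, 2.56 ± 0.784 under shRNA 2 and 1.45 ± 0.133 in vector (SD, n = 2), with scramble 1.62 above vector (adjusted p 0.000822). Scramble was thus above vector in TIGAR, which is listed under its older symbol C12orf5, and below it in PGK1 and LDHA.

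Among 16 further genes of pyruvate and lactate 1 rose with each hairpin over scramble and 0 fell: GPT2, the mitochondrial alanine transaminase gene, with shRNA 1 (0.97, edgeR adjusted p 0.000746) and DLAT, the E2 subunit gene of pyruvate dehydrogenase, with shRNA 2 (0.38). Of 9 further pentose phosphate genes 1 rose with each hairpin, PRPS2, which makes phosphoribosyl pyrophosphate (0.65 and 0.46), and RPIA, the ribose 5-phosphate isomerase gene, fell with shRNA 2 (-0.58). Of 12 further glycogen genes 0 were called with shRNA 1 over scramble, and 1 fell with shRNA 2, the phosphorylase gene PYGB (-0.39). The medians of these 4 lists lay between -0.16 and 0.11 over scramble, beside 0.32 and 0.31 for the 34 genes. Of all genes 4.40% rose and 5.01% fell with shRNA 1 over scramble, and 3.58% and 4.15% with shRNA 2. The counts over scramble in these lists and those below stand beside these shares. The tricarboxylic acid cycle takes up the carbon of pyruvate in mitochondria, and its list here also held genes of cytosolic enzymes such as IDH1 and ACO1. Of its 20 genes 1 was up and 1 down with shRNA 1, and 1 up and 2 down with shRNA 2. The medians were -0.0091 and -0.16. IDH1, the cytosolic isocitrate dehydrogenase, moved in opposite directions, by 0.46 and -0.44.

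Of 14 tested regulators of glucose genes, 3 rose and 2 fell with shRNA 1 over scramble, and 1 rose and 0 fell with shRNA 2. MLXIP and ARNT had lower group means under shRNA 1 than in scramble. MLXIP had group means of 135 CPM in scramble, 95.6 under shRNA 1, 137 under shRNA 2 and 112 in vector. ARNT had 142, 109, 121 and 143 CPM in the same groups. TXNIP, a brake on glucose uptake whose RNA rises when glucose does, was at 642 and 654 CPM in scramble, 989 and 944 under shRNA 1, 1268 and 1260.4 under shRNA 2 and 569.6 and 584 in vector. All 4 hairpin libraries were above both controls, by 0.58 and 0.96 over scramble and 0.74 and 1.13 over vector (edgeR adjusted p from 2.84e-06 to 0.000889), while scramble and vector differed by 0.17 (adjusted p 0.159). In the knockout TXNIP was at 0.11 (adjusted p 0.787). HIF1A, the gene of the oxygen-regulated subunit of HIF-1, stayed uncalled, at -0.012 and 0.023 over scramble and -0.050 for scramble against vector (edgeR adjusted p 0.978, 0.958 and 0.879). The HIF-1 subunit is known to be set mainly by the stability of its protein. MYC rose with shRNA 1 over scramble by 0.42 (adjusted p 0.0188) and was at -0.070 with shRNA 2 (adjusted p 0.743). EGLN3, a HIF prolyl hydroxylase gene that HIF-1 itself is known to induce, was 1.56 lower in scramble than in vector (adjusted p 0.000996) and rose by 0.96 under shRNA 1 over scramble (adjusted p 0.0407), with 0.87 for shRNA 2 and no call there (adjusted p 0.0618).

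Of the 20 hypoxia genes outside glucose metabolism 9 rose and 1 fell with shRNA 1 over scramble, and 11 rose and 2 fell with shRNA 2. Over vector 1 rose and 8 fell with shRNA 1 and 2 rose and 9 fell with shRNA 2, and scramble was lower than vector in 14 and higher in 1 (median -0.61). P4HA1, a collagen prolyl hydroxylase gene, rose by 1.56 and 1.59 over scramble and was 1.90 lower in scramble than in vector. BNIP3, a mitophagy receptor gene, was at 0.80 and 0.96 over scramble and -0.72 and -0.55 over vector. VEGFA, the angiogenic growth factor gene, rose over vector with both hairpins, by 0.80 and 1.34, against the direction of most of the list. Of the 20 G2/M genes 0 rose with any hairpin over either control, 1 and 6 fell over scramble, 16 and 19 fell over vector, and 18 were lower in scramble than in vector (median -0.69).

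**Figure D5:**
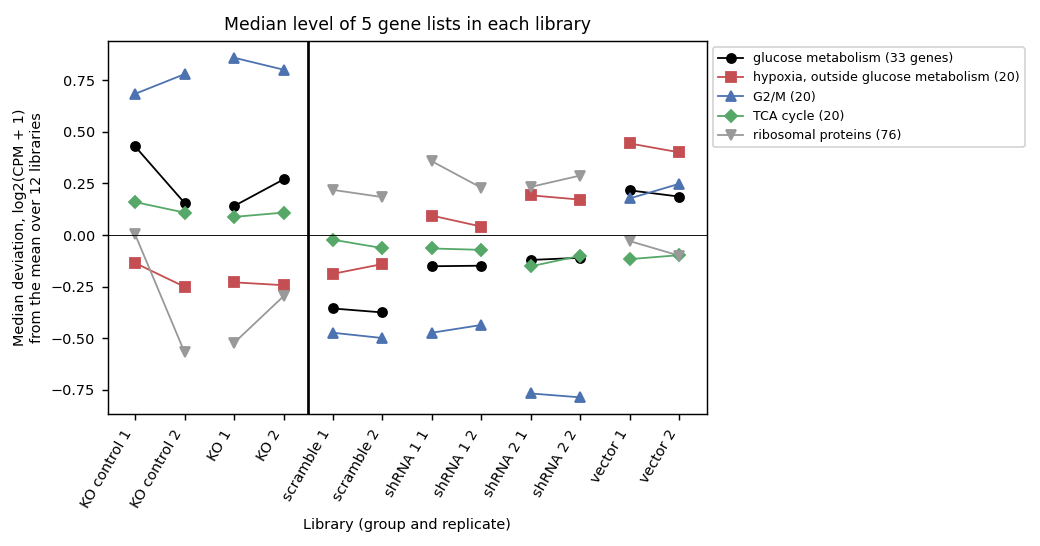
Median deviation of log2(CPM + 1) from the mean over 12 libraries, for the 33 tested glucose metabolism genes and 4 other lists, in each library; the vertical line parts the arms, and lines join only the 2 libraries of a group. Within the knockdown arm the glucose metabolism genes and the hypoxia genes are lowest in scramble and highest in vector, and in the knockout arm the hypoxia genes are at -0.25 to -0.14 while the glucose metabolism genes are at 0.14 to 0.43.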

How the data were processed

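RNA-seq was measured in 12 libraries of 1 cell line, in 6 groups of 2. The deposited values are raw counts per gene symbol, whole numbers for 100% of values. Per the submitters' processing notes, the authors used bcl2fastq, STAR 2.5 and the hg19 build, while annotation, counting mode and strand setting were not given in the sources used here. Library totals were 9738094 to 16823246 counts. Precision rests on the spread between the 2 libraries of a group as well as on these totals. That spread was beyond counting noise in every group, with a chi-square per degree of freedom from 1.61 in vector to 40.1 in the knockout control.

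Groups came from the sample titles. Genes with low counts were removed with edgeR's filterByExpr (minimum count 10, 13365 genes kept), libraries were scaled by TMM, and all 12 were fitted in 1 edgeR 4.0.16 quasi-likelihood model (R 4.3.3, 6 residual degrees of freedom), with Benjamini-Hochberg adjustment over all tested genes and a threshold of 0.05. Each SE was derived as the absolute log2 fold change divided by the square root of the F statistic. The 8 comparisons were the knockout, each hairpin over each control, scramble over vector, hairpin over hairpin, and the knockout effect minus the mean knockdown effect. Alternatives used DESeq2 1.42.0, limma-voom (limma 3.58.1), RLE factors, other filters, the arm alone, a replicate block, a threshold of 0.01, another control and left-out libraries.

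The 34 genes and all lists were chosen with earlier results of these data known. Values in every library are printed for genes called in at least 4 of the 8 comparisons and for GAPDH, HK2, LDHA and PDK1; LDHB was added after its values were seen. Of each other list, up to 4 genes with the smallest adjusted p per comparison are named, and TXNIP, HIF1A and MYC always. Some values are not reported here. Promoters were read from RefSeq (GRCh38.p14), and exon lengths and pseudogene names from GENCODE v29.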

Additional observations from a re-analysis of the deposited data

Results flagged for a closer look

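Differences between the knockout effect and the mean knockdown effect over scramble passed the test of the difference itself in 3 genes (edgeR quasi-likelihood test, adjusted p from 0.00559 to 0.0337). The knockout effect was lower by 0.91 on the log2 scale for PGK1 (-0.91), by 1.13 for ENO2 (-1.13) and by 0.62 for LDHA (-0.62). With vector as the control of the hairpins the values for PGK1, ENO2 and LDHA were 0.44, 0.13 and 0.36 and were not called. The arms also differ in construct and in doxycycline, which cannot be told apart from the difference.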

How the results depend on the processing

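Of 1074 recomputed values of the 88 calls of single genes, 827 kept direction and call, 244 lost the call and 3 reversed, and 36 of the 88 calls held under every alternative run for them. Counts of called genes moved as follows, and where fewer libraries were used there were fewer residual degrees of freedom. With shRNA 1 over scramble the 11 became 17 without a filter on low counts, 25 in the arm alone and 3 at a threshold of 0.01. In the same order, 1647 of 19366, 4304 of 12980 and 492 of 13365 tested genes were called. With shRNA 2 over scramble the 12 became 20, 26 and 7, beside 7.39%, 31.5% and 2.83% of all genes. With shRNA 1 over vector the 14 became 24 in the arm alone (40.7% of all genes). With shRNA 2 over vector the 16 became 9 at 0.01 (11.3%). Between the hairpins the 8 became 22 in the arm alone and 4 at 0.01, beside 38.8% and 6.39% of all genes. For the difference between the knockout and knockdown effects the 3 became 6 with DESeq2 (1.75% of all genes) and 14 without a filter (2.61%). With 1 library left out the counts ranged from 1 to 3 (shRNA 1) and 4 to 4 (shRNA 2) over scramble, 6 to 8 and 9 to 9 over vector, 14 to 18 for scramble over vector, 3 to 5 between the hairpins, 0 to 22 for the knockout and 0 to 23 for the difference of effects; the 22 and the 23 came without knockout control replicate 2. The medians that reversed were 0.196 (difference of effects with vector as control) and 0.023 (knockout without control replicate 1; -0.29 without replicate 2), beside the 0.44, 0.13 and 0.36 of PGK1, ENO2 and LDHA with vector as control. The cause of these changes was not tested.

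Over all genes, the arm alone called 4304, 4091, 5283, 6066, 5462 and 5038 genes for shRNA 1 and 2 over scramble, shRNA 1 and 2 over vector, scramble over vector and hairpin over hairpin, in place of 1258, 1034, 1742, 2801, 2039 and 1909. At 0.01 these were 492, 378, 716, 1514, 1012 and 854. In the knockout 2 genes were called, 23 with DESeq2 and 64 without a filter, and for the difference of effects 147, 234 and 505, and 715 with vector as control.

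Replicate numbers did not pair the libraries. For each group the difference of replicate 1 minus replicate 2 was taken per gene, in log2(CPM + 1). These differences were correlated over genes between groups, at -0.65 for the knockout and its control and at -0.22 to 0.25 elsewhere. With the number as a replicate block 7, 10, 13, 14, 22, 5, 0 and 2 of the 33 genes were called with shRNA 1 and 2 over scramble, over vector, for scramble over vector, between hairpins, for the knockout and for the difference of effects. Of all 13365 tested genes 917, 743, 1339, 2440, 1717, 1557, 1 and 60 were called, in the same order. Each of these counts over all genes was below the count without the block. A crossed pairing in the knockout arm, added after seeing the data, called 0 of the 33 and 72 of all genes. ALDOC, with 0 to 7 counts per library, was below what this depth can test.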
